A study of Mus musculus with 6 samples.

Results

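The enteroendocrine genes described here are 10 genes that mark the hormone-secreting cells of the intestinal lining, namely *Chga*, *Chgb*, *Neurog3*, *Neurod1*, *Insm1*, *Gcg*, *Cck*, *Sct*, *Tac1* and *Tph1*. They were taken by gene symbol from a deposited expression table of 36172 genes, and each symbol matched 1 entry. The values are RPKM (reads per kilobase of transcript per 1000000 mapped reads) from poly(A) RNA of 6 libraries. The libraries come from organoids, 3-dimensional cultures of epithelial cells in a gel, grown from intestinal tumors of C57BL/6 mice aged 15 to 20 weeks. Every organoid line carried the *Apc* allele truncated at codon 716, so this allele was common to all groups. The paper reports loss of wild-type *Apc* in such tumor cells, measured in tumors of another *Trp53* genotype and not in these lines. The groups differed in *Trp53*, with 2 libraries for each of 3 genotypes. The sample titles do not say whether the 2 libraries of a genotype came from different mice. *Trp53* +/+ organoids kept the wild-type gene. *Trp53* flox/flox organoids carried the unrecombined LSL allele of *R270H* on both chromosomes, which is functionally null. In *Trp53* R270H/R270H organoids both alleles had been recombined by tamoxifen-activated villin-CreER, a recombinase expressed in intestinal epithelium, so that they expressed the missense protein.

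Enteroendocrine cells are scattered, rare cells of the gut epithelium that arise from stem cells through a secretory progenitor. *Neurog3* commits the progenitor to the endocrine fate, and *Neurod1* and *Insm1* act downstream of it during differentiation. The mature cells pack peptide hormones or serotonin into dense-core granules with the granins, and release them in response to nutrients.

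In these cultures the genes were near or at the lowest value of the table, apart from *Chgb* in the *Trp53* +/+ libraries. *Chgb*, a granin, was the highest of the 10, at 9.12 ± 2.42 RPKM (SD, n = 2) in *Trp53* +/+ organoids, 1.57 ± 0.812 in *Trp53* flox/flox organoids and 1 RPKM, the lowest value in the table, in both *Trp53* R270H/R270H libraries. *Neurog3*, *Sct* and *Tac1* were between 1 and 3 RPKM where they were detected. All 10 genes stood at the lowest value in both *Trp53* R270H/R270H libraries. *Insm1*, *Gcg*, *Cck* and *Tph1* stood there in all 6 libraries.

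The promoters of the 4 genes above the lowest value in both *Trp53* +/+ libraries are given here, because these are the members with values to compare between genotypes. Each is the 250 bases before a RefSeq transcript start on GRCm38.p6, written 5′ to 3′ on the coding strand. Capitals mark the cAMP response element (TGACGTCA), its half-site (TGACG), the E-box (CANNTG, the core bound by basic helix-loop-helix factors such as NEUROG3 and NEUROD1) and the TATA box (TATAAA), each on either strand. The *Chgb* promoter is chr2:132781392-132781641 on the plus strand, that of *Neurog3* is chr10:62132840-62133089 on the plus strand, that of *Sct* is chr7:141279134-141279383 on the minus strand and that of *Tac1* is chr6:7554811-7555060 on the plus strand.
Chgb: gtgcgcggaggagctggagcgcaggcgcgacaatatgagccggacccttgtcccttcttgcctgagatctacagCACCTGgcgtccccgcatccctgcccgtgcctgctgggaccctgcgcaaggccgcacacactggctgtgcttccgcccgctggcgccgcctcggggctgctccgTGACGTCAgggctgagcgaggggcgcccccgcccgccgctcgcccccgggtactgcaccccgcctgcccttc
Neurog3: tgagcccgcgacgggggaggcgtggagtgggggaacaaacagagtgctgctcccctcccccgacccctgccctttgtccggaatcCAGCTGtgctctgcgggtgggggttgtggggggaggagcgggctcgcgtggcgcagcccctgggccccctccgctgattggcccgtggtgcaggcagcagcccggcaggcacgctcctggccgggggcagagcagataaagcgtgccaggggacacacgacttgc
Sct: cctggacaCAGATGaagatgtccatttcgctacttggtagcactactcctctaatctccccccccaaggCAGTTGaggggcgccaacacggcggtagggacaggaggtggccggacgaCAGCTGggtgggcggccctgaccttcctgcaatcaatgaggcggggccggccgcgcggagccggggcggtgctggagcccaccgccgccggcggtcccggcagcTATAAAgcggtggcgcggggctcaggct
Tac1: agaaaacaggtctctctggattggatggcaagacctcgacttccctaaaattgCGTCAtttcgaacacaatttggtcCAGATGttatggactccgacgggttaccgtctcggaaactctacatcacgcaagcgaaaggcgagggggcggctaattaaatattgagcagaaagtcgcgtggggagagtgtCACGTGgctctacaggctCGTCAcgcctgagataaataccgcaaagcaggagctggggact
The *Chgb* promoter held the full cAMP response element, starting 72 bases before the transcript start, a motif found on either strand in 1.55% of 32851 RefSeq promoters of the same length. No other of the 9 members with a promoter sequence held it. The half-site, which the full element contains, was in 5 of the 9 and in 17.8% of all promoters. E-boxes were in 8 of the 9 and in 66.2% of all promoters, and the TATA box was in 2 of the 9 and in 12.4%. The response-element half-site of p53 was in 0 of the 9 and in 7.13% of all promoters. These letter matches describe the windows only and do not show that a factor binds there.

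The table sets how far down the genes can be read. No value in it is below 1 RPKM, so 1 RPKM is a floor at which the true level is unknown, and 65.7% of the 36172 genes were at the floor in all 6 libraries. The table holds no read counts, but steps of 1 read between the values of short genes gave approximate depths of 44.2 to 47.3 M (1000000) mapped reads for 4 libraries, and were not clear enough for *Trp53* +/+ replicate 1 and *Trp53* flox/flox replicate 1. At these depths, and with exon lengths from GENCODE M21, 1 RPKM of *Chgb* corresponds to about 121 to 130 reads and 1 RPKM of *Sct*, the shortest member, to about 28.5 to 30.5 reads. A gene at the floor may therefore still have been transcribed. *Trp53* itself was at 75.1 ± 1.10, 2.11 ± 0.529 and 77.7 ± 7.00 RPKM (SD, n = 2) in the +/+, flox/flox and R270H/R270H libraries. The *Trp53* flox/flox libraries differed most from each other, with a median SD between libraries of 0.247 on the log2 scale against 0.0463 and 0.0621 in the *Trp53* +/+ and R270H/R270H libraries.

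Marker genes were used to check the tissue. All 7 epithelial markers were above the floor in some library, and *Krt18*, a keratin, lay between 702 and 1336 RPKM. All 6 leukocyte markers were at the floor in every library, *Ptprc* among them, and so were 10 of 12 markers of enteric neurons and glia, including *Elavl3*, *Elavl4*, *Tubb3* and *Sox10*. The cultures thus held epithelium, but the defining enteroendocrine markers *Chga*, *Neurod1* and *Insm1* were at or next to the floor throughout. The measured values are those of whole cultures, in which fewer cells of a type and less RNA per cell cannot be told apart.

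**Figure D1:**
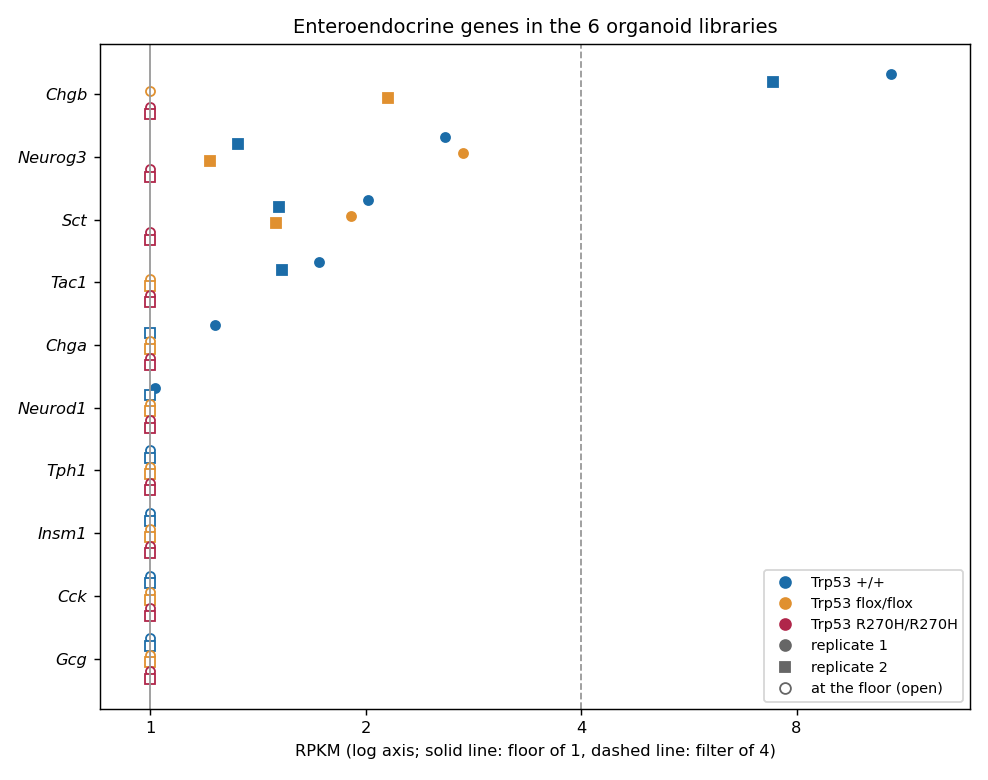
RPKM of the 10 enteroendocrine genes in each library, on a log axis, by genotype (color) and replicate (circle or square), with open symbols at the floor of 1 RPKM. Only *Chgb* in the *Trp53* +/+ libraries passed 4 RPKM, and all 10 genes were at the floor in both *Trp53* R270H/R270H libraries.

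The number of members above the floor differed among libraries. It was 6 in *Trp53* +/+ replicate 1, 4 in *Trp53* +/+ replicate 2, 2 and 3 in the *Trp53* flox/flox replicates 1 and 2, and 0 in both *Trp53* R270H/R270H libraries. Of the 6 members detected in at least 1 library, 0 were at the floor in both *Trp53* +/+ libraries, 3 in both *Trp53* flox/flox libraries and 6 in both *Trp53* R270H/R270H libraries. Over the 12412 genes detected in at least 1 library, the shares at the floor in both libraries were 7.36%, 6.77% and 5.53% in the same order. Low genes reach the floor more often, and 5 of the 6 members stayed under 4 RPKM. Among the 2370 genes above the floor that stayed under 4 RPKM, the shares were 33.7%, 30.5% and 24.4%, against 0, 3 and 5 of these 5 members. *Chga*, *Neurod1* and *Tac1* were detected in *Trp53* +/+ libraries alone. Their part in these counts is therefore fixed by how they entered, and nothing about the genotypes is read from the counts.

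Transcription factors of the lineage were described first. *Neurog3*, which commits progenitors to the endocrine fate, was at 2.58 and 1.32 RPKM in the *Trp53* +/+ libraries, 2.73 and 1.21 in the *Trp53* flox/flox libraries and at the floor in both *Trp53* R270H/R270H libraries. The first 2 genotypes overlapped, and both R270H/R270H libraries were below all 4 of the others. *Neurod1* was at 1.02 RPKM in *Trp53* +/+ replicate 1 and at the floor in the other 5 libraries. *Insm1*, a zinc-finger repressor needed for endocrine differentiation, was at the floor in every library.

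The granins form the core of the secretory granule. *Chgb* was at 10.8 and 7.41 RPKM in the *Trp53* +/+ libraries, at the floor and at 2.15 RPKM in the *Trp53* flox/flox replicates 1 and 2, and at the floor in both *Trp53* R270H/R270H libraries. Both *Trp53* +/+ libraries were above the other 4, while the *Trp53* flox/flox and R270H/R270H libraries met at the floor. The mean in *Trp53* +/+ organoids was at least 9.12-fold higher than in *Trp53* R270H/R270H organoids. *Chga*, the other granin and the most widely used marker of the lineage, was at 1.23 RPKM in *Trp53* +/+ replicate 1 and at the floor elsewhere.

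Among the hormones, *Sct*, which encodes secretin, was at 2.01 and 1.51 RPKM in the *Trp53* +/+ libraries, at 1.91 and 1.499 in the *Trp53* flox/flox libraries and at the floor in both *Trp53* R270H/R270H libraries. As for *Neurog3*, the first 2 genotypes overlapped and the third lay below them. *Tac1*, the precursor of substance P, was at 1.72 and 1.53 RPKM in the *Trp53* +/+ libraries and at the floor in the other 4. *Gcg*, the precursor of glucagon-like peptides, and *Cck*, which encodes cholecystokinin, were at the floor in all 6 libraries. So was *Tph1*, the rate-limiting enzyme of serotonin synthesis in the gut.

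**Figure D2:**
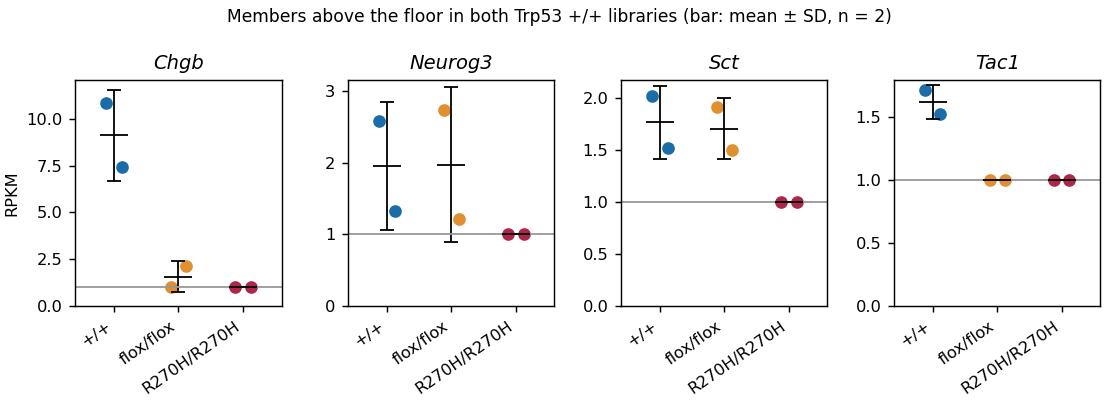
RPKM of *Chgb*, *Neurog3*, *Sct* and *Tac1* in each library (points) by *Trp53* genotype, with the mean ± SD of 2 libraries (bars) and the floor of 1 RPKM (grey line). *Chgb* and *Tac1* were above the other genotypes only in the *Trp53* +/+ libraries, whereas *Neurog3* and *Sct* had overlapping values in *Trp53* +/+ and flox/flox libraries and were at the floor in R270H/R270H libraries.

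Genotypes were compared with limma on log2(RPKM + 1) over the 10042 genes that reached 4 RPKM in some library, two-sided and with Benjamini-Hochberg adjustment over these genes. *Chgb* was the only member that passed this filter. It passed through the +/+ libraries alone, so its lower value in the other genotypes is tied in part to its entry. The tests of *Chgb* are given with that limit. Relative to *Trp53* +/+ organoids, *Chgb* was lower in R270H/R270H organoids, with a log2 fold change of -2.32 (SE 0.28, limma adjusted p = 0.0122). Relative to the same organoids it was also lower in flox/flox organoids, with a log2 fold change of -1.99 (SE 0.28, limma adjusted p = 0.0223). Between *Trp53* R270H/R270H and flox/flox organoids the difference was -0.33, with a confidence interval (95%) from -1.05 to 0.39 (limma adjusted p = 0.406), so a difference in either direction was not detectable. Both comparisons with *Trp53* +/+ organoids use the same 2 control libraries and are not independent. *Chgb* was at the floor in both R270H/R270H libraries and in flox/flox replicate 1. Spread below the floor is hidden, so its SE and p-values may understate the variation between libraries. Of all genes tested, 6.36% were called lower and 5.86% higher in *Trp53* R270H/R270H than in +/+ organoids, and 6.9% lower and 4.38% higher in *Trp53* flox/flox than in +/+ organoids. Between R270H/R270H and flox/flox organoids 11% were called lower and 13.6% higher, and 0 members were called, with 0 at an unadjusted limma p under 0.05.

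The call on *Chgb* depended on the libraries used. The lower value in *Trp53* R270H/R270H organoids was called in 13 of 17 alternative settings and the lower value in *Trp53* flox/flox organoids in 10 of 17, always in the same direction. The 4 exceptions in the first were the fits without *Trp53* +/+ replicate 1 (limma adjusted p = 0.112), +/+ replicate 2 (0.0879), R270H/R270H replicate 1 (0.148) and R270H/R270H replicate 2 (0.122). The same 4 left-out libraries ended the flox/flox call, at limma adjusted p-values of 0.184, 0.171, 0.101 and 0.102, and so did 3 other settings given in the closing section. For a single gene, an exact permutation test of 2 against 2 libraries cannot give a two-sided p under 0.333.

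With the filter lowered to 1.5 RPKM, 11812 genes were tested, and *Neurog3*, *Sct* and *Tac1* entered beside *Chgb*. Each entered through the libraries in which it was high, and *Tac1* through the +/+ libraries alone, with the other 4 at the floor, so that its lower value in the other genotypes is tied to its entry. *Tac1* was lower by -0.39 on the log2 scale (SE 0.08) in both *Trp53* R270H/R270H and flox/flox organoids than in +/+ organoids (limma adjusted p = 0.0369 and 0.0420). This fold change understates the ratio, because 1 was added to values already raised to 1. Values at the floor show no spread, so the SE and p-values of *Tac1* may understate the variation between libraries. The same holds for *Sct* and *Neurog3*, which were at the floor in both R270H/R270H libraries. The *Sct* difference between R270H/R270H and +/+ organoids was -0.46, with a 95% interval from -0.80 to -0.13 (limma adjusted p = 0.0765), and that between R270H/R270H and flox/flox organoids was -0.43, from -0.77 to -0.10 (0.0676). The *Neurog3* differences were -0.53, from -1.34 to 0.28, and -0.52, from -1.33 to 0.29 (limma adjusted p = 0.311 and 0.262). For *Neurog3* the difference between flox/flox and +/+ organoids was -0.01, from -0.82 to 0.80, and for *Sct* it was -0.03, from -0.36 to 0.31. With this filter *Chgb* and *Tac1*, 2 of the 4 that entered, were called lower in each comparison with +/+ organoids, a count that is fixed in part by the filter and from which nothing is read; over all genes 7.23% (R270H/R270H) and 7.81% (flox/flox) were called lower. Between R270H/R270H and flox/flox organoids limma called 0 of 4, with 1 (*Sct*) at an unadjusted p under 0.05, where 9.98% of all genes were called lower.

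Without a test, both *Trp53* R270H/R270H libraries lay below both +/+ libraries for *Chgb*, *Neurog3*, *Sct* and *Tac1*, 4 of the 6 members detected in some library. Of the 12412 detected genes, 35.4% did so. Both *Trp53* flox/flox libraries lay below both +/+ libraries for 2 of the 6 (*Chgb* and *Tac1*), against 33.7% of detected genes. Both R270H/R270H libraries lay below both flox/flox libraries for another 2 (*Neurog3* and *Sct*), against 27.2%. The last 2 shares of members are close to those of all genes. All 6 members were detected only in +/+ or flox/flox libraries, and *Chga*, *Neurod1* and *Tac1* in +/+ libraries alone. These counts are therefore fixed in part by how the members entered, and nothing is read from them.

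Other genes of the pathway were read from lists of related genes, most of which were also at the floor. Of 8 other gut hormone genes, 5 were at the floor in all libraries, among them *Gip*, *Pyy* and *Sst*. *Nts*, the neurotensin precursor, was the only hormone gene of the list that passed the filter of 4 RPKM. It was at 6.11 and 6.65 RPKM in *Trp53* +/+, 5.06 and 3.01 in flox/flox and 15.1 and 14.8 in R270H/R270H libraries, highest in the genotype in which all 10 members were at the floor. *Nts* was higher in R270H/R270H than in +/+ organoids by 1.11 on the log2 scale (SE 0.21, limma adjusted p = 0.0353) and than in flox/flox organoids by 1.69 (SE 0.21, limma adjusted p = 0.00989). *Ghrl*, which encodes ghrelin, followed *Tac1*, with 1.53 and 1.42 RPKM in the +/+ libraries and the floor in the other 4; it was named after its values were seen.

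Of 17 other transcription factors of the lineage, 11 were at the floor throughout, including *Pax4*, *Pax6*, *Isl1* and *Fev*. Only *Foxa1*, a forkhead factor expressed in all intestinal epithelial cells as well as in endocrine precursors, was called among the 4 tested. It was at 19.7 and 18.7 RPKM in +/+, 42.7 and 38.9 in flox/flox and 27.6 and 28.0 in R270H/R270H libraries. *Foxa1* rose by 1.05 (limma adjusted p = 0.0105) and 0.51 (0.0362) on the log2 scale in flox/flox and R270H/R270H organoids against +/+ organoids, and was lower in R270H/R270H than in flox/flox organoids by -0.54 (0.0225).

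Upstream of *Neurog3*, the secretory fate is set by *Atoh1* and opposed by Notch signaling through *Hes1*. *Atoh1* was at 2.07 and 1.44 RPKM in +/+, 3.31 and 1.20 in flox/flox, and 1.04 and 1 in R270H/R270H libraries, below the filter and with overlap between +/+ and flox/flox; it was named after its values were seen. *Hes1* was at 42.1 and 41.0 RPKM in +/+, 28.4 and 28.3 in flox/flox and 46.6 and 52.0 in R270H/R270H libraries. *Hes1* was lower in flox/flox than in +/+ organoids by -0.54 on the log2 scale (limma adjusted p = 0.0352) and higher in R270H/R270H than in flox/flox organoids by 0.78 (0.0103). It was the only 1 of the 6 tested genes of its list that was called in any comparison.

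Of 24 granule and prohormone-processing genes, 17 were at the floor in every library, including *Scg2*, *Scg3* and *Pcsk2*. Among the 5 tested, 2 were higher and 0 lower in R270H/R270H than in +/+ organoids. In flox/flox against +/+ organoids 0 were higher and 2 lower, and in R270H/R270H against flox/flox organoids 4 were higher and 0 lower. Over all genes tested, 5.86% were called higher in the first comparison, 6.9% lower in the second and 13.6% higher in the third. The median log2 fold changes of the list were 0.18, -0.66 and 0.96 beside 0.03, -0.02 and 0.03 over all genes tested. *Stx1a*, a membrane fusion protein of regulated exocytosis, was at 4.10 and 3.33 RPKM in +/+, 4.77 and 4.06 in flox/flox and 11.7 and 14.3 in R270H/R270H libraries, and was higher in R270H/R270H than in +/+ organoids by 1.57 (SE 0.16, limma adjusted p = 0.00769). *Pam*, which amidates peptide hormones, was higher in the same comparison by 0.67 (SE 0.13, limma adjusted p = 0.0364). *Vamp2*, a vesicle fusion protein, was lower in flox/flox than in +/+ organoids by -0.78 (SE 0.15, limma adjusted p = 0.0356). *Pcsk1*, the prohormone convertase, was named after its values were seen. It was at 4.28 and 5.41 RPKM in +/+, 1.08 and 1 in flox/flox and 5.81 and 4.999 in R270H/R270H libraries, and was lower in flox/flox than in +/+ organoids by -1.51 (SE 0.16, limma adjusted p = 0.0127).

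For serotonin handling, 4 of 7 genes were tested. *Slc18a1*, the vesicular monoamine transporter that loads serotonin into granules, was at 7.10 and 5.49 RPKM in +/+, 1.85 and 2.63 in flox/flox and 11.3 and 10.01 in R270H/R270H libraries. *Slc18a1* was lower in flox/flox than in +/+ organoids by -1.17 (SE 0.19, limma adjusted p = 0.0274) and higher in R270H/R270H than in flox/flox organoids by 1.86 (0.00583), and the difference of 0.68 between R270H/R270H and +/+ organoids missed the threshold (0.0760). Of 15 nutrient receptors and channels, 14 were at the floor in all libraries. The exception was *Ffar4*, a receptor for long-chain fatty acids listed under an older symbol. *Ffar4* was at 6.45 and 6.35 RPKM in +/+, 11.8 and 12.9 in flox/flox and 2.06 and 1.99 in R270H/R270H libraries, so the 3 genotypes did not overlap. It was lower in R270H/R270H than in +/+ organoids by -1.29 (SE 0.11, limma adjusted p = 0.00524) and higher in flox/flox than in +/+ organoids by 0.85 (SE 0.11, limma adjusted p = 0.0195).

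**Figure D3:**
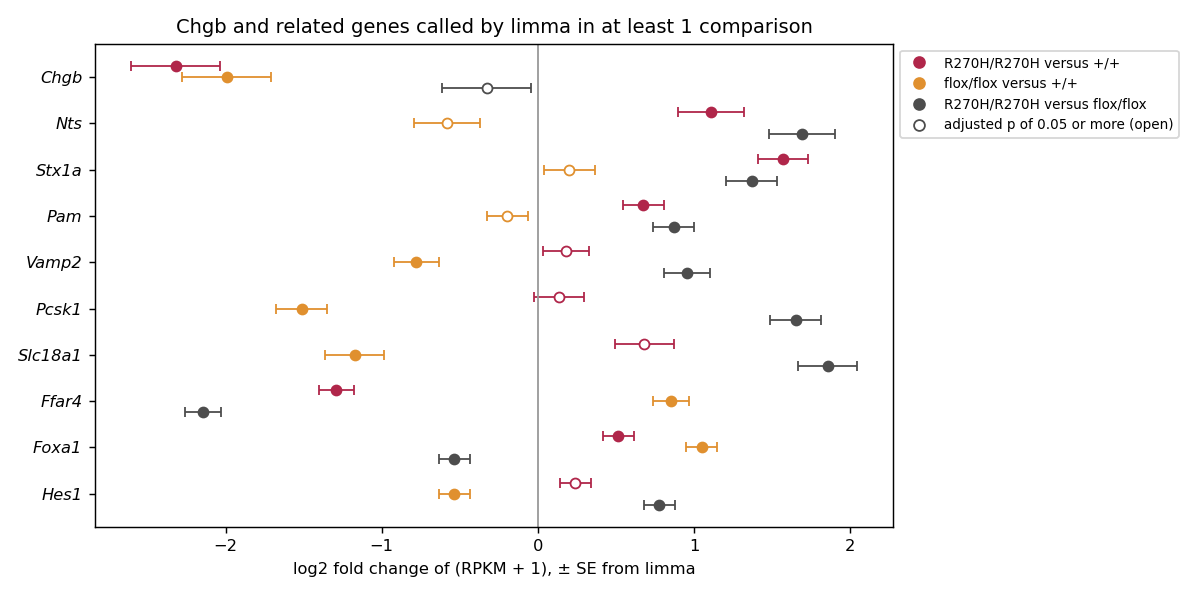
Log2 fold change of RPKM + 1 (points, ± SE from limma) in the 3 comparisons of genotypes for *Chgb* and 9 related genes that were called in at least 1 comparison, with open points at an adjusted p of 0.05 or more. *Chgb* was lower in both comparisons with *Trp53* +/+ organoids, *Nts*, *Stx1a* and *Pam* were higher in R270H/R270H organoids, and *Pcsk1*, *Slc18a1* and *Vamp2* were lower in flox/flox organoids.

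The other secretory lineages were compared with the members by summed level. The 10 members summed to 17.8 to 23.4 RPKM in the +/+ libraries, 11.9 to 12.6 in the flox/flox libraries and 10 in both R270H/R270H libraries, the last being the sum of 10 floors. The 6 Paneth cell genes summed to 1413 to 1765, 599 to 628 and 521 to 577 RPKM in the same order, and the 6 goblet cell genes with a usable entry to 350.5 to 413.8, 146 to 178 and 175 to 179 RPKM. Of the Paneth cell genes 5 were lower and 1 higher in R270H/R270H than in +/+ organoids, and 4 were lower and 0 higher in flox/flox than in +/+ organoids. Over all genes tested, 6.36% were called lower and 5.86% higher in the first comparison, and 6.9% lower and 4.38% higher in the second. *Lyz1*, which encodes lysozyme, differed by -1.49 (limma adjusted p = 0.0154) and -1.62 (0.0167), and *Mmp7*, the protease that activates defensins, by -1.96 (0.00441) and -0.56 (0.0821). *Defa24*, a defensin with near-identical copies whose reads may be split, differed by -2.18 (0.00681) and -2.92 (0.00593), and the 1 Paneth cell gene that was higher in R270H/R270H organoids was *Itln1*, named after its values were seen (0.95, limma adjusted p = 0.0382). Of 5 tested goblet cell genes 2 were lower in R270H/R270H and 3 in flox/flox than in +/+ organoids, *Fcgbp* (-0.68, limma adjusted p = 0.0405, and -1.89, 0.00615) and *Spink4* (-1.29, 0.0482, and -1.49, 0.0367) in both and *Agr2* (-1.08, 0.0551, and -1.60, 0.0274) in flox/flox only by this threshold.

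Markers of other cell types were read beside the members. Summed stromal markers were at their floor of 7 RPKM in both +/+ libraries, 7 and 19.2 in the flox/flox libraries and 7.53 to 7.59 in the R270H/R270H libraries. The high value was mostly *Acta2*, at 11.5 RPKM in flox/flox replicate 2. *Col1a1* (2.44 RPKM), *Pdgfra* (1.23) and *Dcn* (1.05) were above the floor in that library alone. These stromal genes were named after their values were seen. The neuron and glia markers summed to 12 in both +/+ libraries, their floor, to 12 to 13.3 in the flox/flox libraries and to 14.5 to 14.7 in the R270H/R270H libraries. *Uchl1*, also named after its values were seen, was at 3.65 and 3.55 RPKM in the R270H/R270H libraries and at 2.35 in flox/flox replicate 2. In the +/+ libraries, in which the granin and tachykinin genes were highest, none of these neuron, glia and stroma markers was above the floor. Their levels below the floor are unknown, and which cells gave the *Chgb* and *Tac1* RNA was not tested. Of the 4 stem cell markers 1 was higher and 0 lower in R270H/R270H than in +/+ organoids (*Olfm4*, 2.49, limma adjusted p = 0.0199). *Smoc2* (1.07, 0.0901), *Lgr5* (-0.26, 0.515) and *Ascl2* (-0.95, 0.0512) were not called there. Against flox/flox organoids, *Olfm4* was higher (1.95, 0.0242) and *Ascl2* lower (-1.72, 0.00984) in R270H/R270H organoids. Of the 3 tested enterocyte markers 1 was lower in flox/flox than in +/+ organoids (*Alpi*, -2.05, limma adjusted p = 0.0426). *Alpi* (1.86, 0.0351) and *Fabp1* (1.80, 0.0193) were higher in R270H/R270H than in flox/flox organoids. The 1 tuft cell marker tested was not called. Over all genes tested, 5.86% were called higher in R270H/R270H and 6.9% lower in flox/flox organoids than in +/+ organoids. In R270H/R270H against flox/flox organoids 13.6% were called higher and 11% lower. Summed enterocyte markers were also highest in the +/+ libraries, at 39.3 to 49.8 RPKM. They were at 8.31 to 19.2 in the flox/flox and 22.6 to 32.8 in the R270H/R270H libraries. Among the epithelial markers *Krt19* was lower in R270H/R270H than in +/+ organoids (-0.78, limma adjusted p = 0.0469) and higher in flox/flox than in +/+ organoids (0.84, 0.0411). *Krt8* was also higher in flox/flox than in +/+ organoids (0.70, 0.0329). Relative to flox/flox organoids, *Krt8* (-0.93, 0.0112), *Krt18* (-0.80, 0.0192) and *Krt19* (-1.62, 0.00657) were lower in R270H/R270H organoids. *Epcam*, *Cdh1*, *Vil1* and *Cdx2* were not called in any comparison. The part of any change in cell composition in the *Chgb* difference was not tested.

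**Figure D4:**
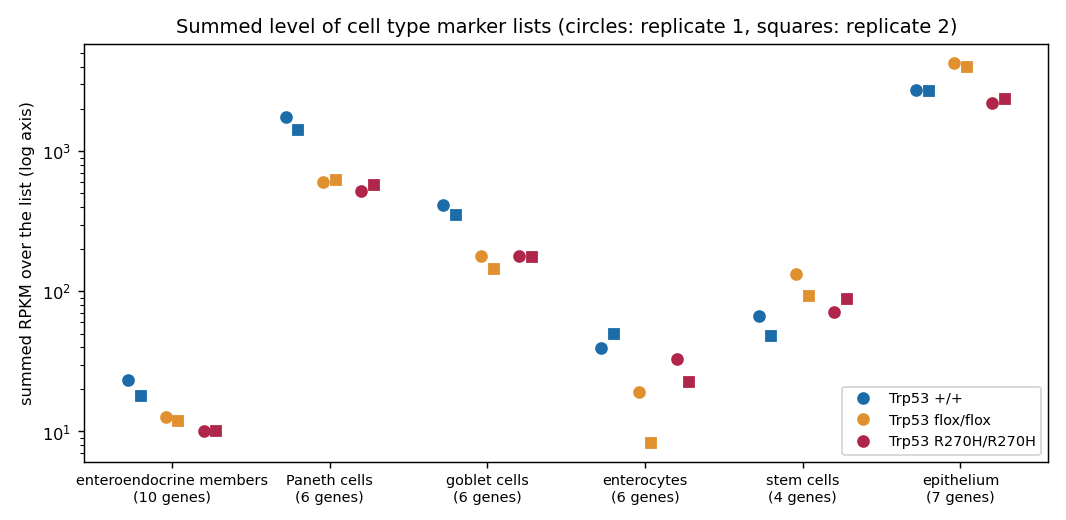
Summed RPKM, on a log axis, of the 10 enteroendocrine genes and of 5 other marker lists in each library, by *Trp53* genotype (color) and replicate (circle or square). The sums of the enteroendocrine, Paneth cell, goblet cell and enterocyte genes were highest in both *Trp53* +/+ libraries, and the enteroendocrine sum of 10 RPKM in R270H/R270H libraries is the floor.

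The genes most like *Chga* across the 6 libraries were found among those past the filter by Pearson correlation of log2(RPKM + 1). They were *Gm12992* (r = 1.00), *Pla2g12a* (0.891), *Apbb3* (0.863), *Trim32* (0.853) and *Wdr31* (0.852). Since *Chga* was above the floor in 1 library, this measure finds genes that were high in *Trp53* +/+ replicate 1, and *Gm12992* too was above the floor only there, at 4.90 RPKM. The genes most like *Chgb*, listed after its values were seen, were *Olfml2b* (0.997), *Rcan1* (0.995), *2610507I01Rik* (0.994), *Reg3b* (0.994) and *Mab21l3* (0.993), and 145 genes reached an r of at least 0.95. *Reg3b*, an antimicrobial lectin, was at 49.6 and 39.9 RPKM in the +/+ libraries, at the floor and at 2.78 RPKM in flox/flox replicates 1 and 2, and at the floor in both R270H/R270H libraries. These correlations rest on 6 libraries in 3 groups and mainly follow the difference of the +/+ libraries from the rest.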

How the data were processed

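The authors extracted poly(A) RNA from 2 organoid preparations of each genotype, sequenced stranded libraries on an Illumina HiSeq, mapped the reads to mm10 and calculated the deposited RPKM values with StrandNGS. Its version, annotation and read filters are not given in the sources used here. That values under 1 RPKM were raised to 1 is inferred from the table. Groups and replicate numbers came from the sample titles.

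Log2(RPKM + 1) of the 6 libraries was fitted with limma 3.58.1 in R 4.3.3 (lmFit, eBayes with trend, no block), for genes reaching 4 RPKM in any library, and called at an adjusted p under 0.05. The script was tested on simulated data. Tables, motif searches and plots were made in Python 3.11.15 (pandas 2.3.3, numpy 2.4.6, scipy 1.17.1, matplotlib 3.10.9). Depth was searched from 20 to 70 M reads with genes under 230 nt, and accepted with at least 10 such genes at a mean distance of at most 0.1 from whole reads. That acceptance rule was set after the values were seen. Promoters came from RefSeq on GRCm38.p6, matched by symbol for 9 of the 10 members, with the first listed of 2 starts for *Tph1*.

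The members, lists and settings were chosen with earlier results of these data known. Named genes are all members, up to 3 called genes with the highest RPKM in each list, the 5 genes most like *Chga*, and *Trp53*; genes given as examples of those at the floor, and others so marked, were named after their values were seen. *Muc2* has split entries and was not used. Same-numbered libraries come from different mice, and their deviations correlated by -0.29, 0.12 and -0.20 between genotypes, so the number was not treated as a pairing.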

Additional observations from a re-analysis of the deposited data

How the results depend on the processing

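*Chgb* kept its direction against *Trp53* +/+ organoids in all 17 alternatives, with log2 fold changes from -3.16 to -2.07 for R270H/R270H and from -2.61 to -1.66 for flox/flox organoids. The number of members called against +/+ organoids was 1 in each comparison as reported. It was 2 with a filter of 1.5 RPKM or none above the floor, since *Tac1* was added, and 0 to 1 when single libraries were left out. For flox/flox against +/+ organoids it was also 0 with genotype weights (limma adjusted p of *Chgb* 0.118), with a replicate block (0.0564) and in a fit of only the 2 genotypes compared (0.0998). Between R270H/R270H and flox/flox organoids 0 members were called in every alternative, and the lowest adjusted p of *Chgb*, without flox/flox replicate 1, was 0.0516. The count of all genes called was 1227 (R270H/R270H against +/+), 1133 (flox/flox against +/+) and 2469 (R270H/R270H against flox/flox). It became 5987, 150 and 534 with genotype weights, 550, 280 and 1156 with a replicate block, and 5721, 47 and 378 in fits of only the 2 genotypes compared, and the first was 1907 without a filter above the floor. Leaving out 1 library gave 0 to 5732, 8 to 6875 and 166 to 7259 calls. The lowest was 0 without either +/+ library or R270H/R270H replicate 1, where 1470 to 1578 genes had an unadjusted limma p under 0.05, and the highest in each comparison came without flox/flox replicate 2. A genotype left with 1 library was assumed to vary like the others. The cause of these shifts was not tested. The floor of 1 RPKM hides any difference among libraries below it, and 9 of the 10 members could not be tested with the filter of 4 RPKM.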
